A study of Mus musculus with 20 samples.

Results

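Acute-phase protein genes encode plasma proteins that the liver makes in changed amounts during infection, injury or cancer. The 10 genes described here were Saa1, Saa2, Saa3, Orm1, Orm2, Hp, Hpx, Lcn2, Crp and Hamp, chosen by name, and each matched a single gene among the 54532 in both deposited count tables. Their levels were read in normal liver, in tumor-free liver of a tumor-bearing mouse and in liver samples holding growing colorectal liver metastases (CRLM), and then relative to Alb, the gene of serum albumin, which hepatocytes make in large amounts.

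All mice were wild-type C57BL/6. Normal liver (con) was taken on day 0 after saline, and every other group received 1000000 Mc38 colon adenocarcinoma cells, injected through the spleen into the portal vein. Tumor-free liver remote from the tumor (L-con) was taken at 12 dpi (days post-injection), low-content tumor (Lt) at 9 dpi, medium-content tumor Mt3 at 9 dpi, Mt2 and Mt1 at 11 dpi, and high-content tumor (Ht) at 12 dpi. Each tumor sample was a piece of tissue with liver and metastasis together, from a single cell line as the model. F4/80+ cells and CD11b+ cells were isolated at 11 dpi from medium-sized CRLM with microbeads. There were 2 libraries each for con, Lt, Mt3, Mt2 and Mt1, 1 for L-con, 3 for Ht and 3 for each cell population. Ht_1 and Ht_3 were made from identical material according to the Methods, so they were summed and Ht counted as 2 samples. The 6 libraries of Mt3, Mt2 and Mt1 are also described together as Mt. Con was taken on day 0 alone, and tumor content rose with the day from Lt to Ht. In comparisons with con and between Lt, Mt and Ht, tumor content and time since injection cannot be told apart.

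In the acute phase, interleukin-6 and related cytokines act through the receptor chain gp130 and the transcription factor STAT3 in hepatocytes, and interleukin-1 and tumor necrosis factor act through NF-kB and C/EBP factors. Serum amyloid A proteins (Saa1, Saa2, Saa3) ride on high-density lipoprotein and attract leukocytes. Orosomucoids (Orm1, Orm2) bind drugs and lipids in plasma, haptoglobin (Hp) captures free hemoglobin, and hemopexin (Hpx) captures free heme. Lipocalin-2 (Lcn2) binds bacterial iron carriers and is also a granule protein of neutrophils. Hepcidin (Hamp) blocks iron export by ferroportin and answers both STAT3 and bone morphogenetic protein (BMP) signals. C-reactive protein (Crp), a pentraxin, is a major acute-phase reactant in humans and a minor one in mice. Albumin itself is a negative acute-phase protein, so that a ratio to Alb can rise through a fall of Alb transcription as well as through induction.

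The SAA genes lie together on chromosome 7 of GRCm38, with Saa3 (ENSMUSG00000040026, 46711998 to 46715700), Saa1 (ENSMUSG00000074115, 46740497 to 46742980) and Saa2 (ENSMUSG00000057465, 46751790 to 46754313) within 42316 bases. Orm1 (ENSMUSG00000039196, 63344560 to 63348163) and Orm2 (ENSMUSG00000061540, 63362449 to 63365878) are neighbors on chromosome 4. Hamp (ENSMUSG00000050440, 30942368 to 30944032) and Hpx (ENSMUSG00000030895, 105591613 to 105600137) are on chromosome 7. Hp (ENSMUSG00000031722) is on chromosome 8 from 109575128 to 109579172, Lcn2 (ENSMUSG00000026822) on chromosome 2 from 32384633 to 32388252, and Crp (ENSMUSG00000037942) on chromosome 1 from 172698055 to 172833031. Alb (ENSMUSG00000029368) is on chromosome 5 from 90460897 to 90476602. Paralogs can share reads: the longest coding transcripts of Saa1 and Saa2 were identical at 94.4% of 606 aligned bases, those of Orm1 and Orm2 at 91.0% of 775, and those of Hamp and Hamp2 at 94.6% of 410. How the counting treated reads that fit both copies is not given in the sources used here, and values of these pairs are uncertain to that degree.

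Promoter windows of 300 bases, 250 before and 50 after the transcription start, were found in RefSeq (GRCm38.p6) for 8 of the 10 genes; Orm1 and Hp had no entry. Below are those of the genes that the results turn on, with motif matches in capitals. The motifs searched on both strands were TTGCNNAA for C/EBP, TTCNNNGAA for STAT, GGCGCC for the BMP response and, for NF-kB, GGG and TTTCC with any 2 bases between them. In Saa1, Saa2, Lcn2 and Orm2 the capitals mark C/EBP matches, and in Hamp they mark first the BMP response match and then the STAT match. The windows lie at chr7:46742931-46743230 on the minus strand (Saa1), chr7:46751583-46751882 on the plus strand (Saa2), chr4:63362199-63362498 on the plus strand (Orm2), chr2:32387690-32387989 on the minus strand (Lcn2) and chr7:30943980-30944279 on the minus strand (Hamp).
Saa1: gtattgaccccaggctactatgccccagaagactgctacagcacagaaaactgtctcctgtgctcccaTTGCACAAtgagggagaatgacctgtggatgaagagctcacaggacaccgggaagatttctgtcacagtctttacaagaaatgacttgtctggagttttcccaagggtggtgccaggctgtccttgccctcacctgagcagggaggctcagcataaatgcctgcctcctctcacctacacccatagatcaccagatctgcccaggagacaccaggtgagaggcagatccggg
Saa2: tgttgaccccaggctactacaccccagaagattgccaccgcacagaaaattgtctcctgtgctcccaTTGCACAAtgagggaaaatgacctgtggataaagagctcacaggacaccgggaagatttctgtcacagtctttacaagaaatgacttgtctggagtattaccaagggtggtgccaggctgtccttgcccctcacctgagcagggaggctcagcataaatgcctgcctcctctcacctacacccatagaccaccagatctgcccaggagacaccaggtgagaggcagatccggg
Orm2: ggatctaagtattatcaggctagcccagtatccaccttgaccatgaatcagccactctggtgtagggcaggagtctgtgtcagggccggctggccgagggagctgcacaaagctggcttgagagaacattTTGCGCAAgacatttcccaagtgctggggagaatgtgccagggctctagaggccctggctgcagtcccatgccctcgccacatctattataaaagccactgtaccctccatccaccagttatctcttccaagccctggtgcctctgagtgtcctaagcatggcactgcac
Lcn2: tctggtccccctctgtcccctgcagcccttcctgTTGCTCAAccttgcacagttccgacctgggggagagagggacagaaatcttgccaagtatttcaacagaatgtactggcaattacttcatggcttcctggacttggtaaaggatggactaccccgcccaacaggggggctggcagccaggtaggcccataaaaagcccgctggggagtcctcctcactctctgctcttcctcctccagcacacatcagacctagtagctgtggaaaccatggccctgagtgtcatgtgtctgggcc
Hamp: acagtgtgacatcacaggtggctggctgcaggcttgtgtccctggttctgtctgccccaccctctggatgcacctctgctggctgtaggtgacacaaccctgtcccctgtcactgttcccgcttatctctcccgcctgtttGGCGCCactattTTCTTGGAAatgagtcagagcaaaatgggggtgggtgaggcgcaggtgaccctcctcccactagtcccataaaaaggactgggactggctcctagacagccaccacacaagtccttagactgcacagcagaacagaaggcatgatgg

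The windows of Saa1 and Saa2 were identical at 287 of 299 aligned bases (96.0%) and held the same C/EBP match, at -182 to -175 from the start in Saa1 and -183 to -176 in Saa2. C/EBP letters were present in 6 of the 8 windows (Saa1, Saa2, Saa3, Orm2, Hpx and Lcn2), against 10.8% of 32544 promoter windows of the same length. STAT letters were found in 1 of the 8, Hamp, against 8.33% of all windows. Hamp was also the 1 window of 8 with the BMP response letters, against 11.9%, and these lay at -109 to -104, next to its STAT match at -97 to -89. No window of the 8 held the NF-kB letters, which 1.61% of all windows hold. These matches describe letters in a short window and no binding was measured.

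The tissue libraries held 16032085 to 18246623 counts and the cell libraries 17785496 to 20548370, so that 3 counts were 0.146 to 0.187 CPM (counts per 1000000) of the library totals. On the TMM scale 3 counts per con library were 0.257 CPM on average, the floor used for folds against con, and such floors cover counting error only. CPM values below were scaled by TMM, and TMM factors ran from 0.69 in con to 1.60 in Ht. The summed CPM of 8 hepatocyte genes other than Alb, among them Apob, Apoh and Gc, was 34303 to 36475 for con, 18788 to 26100 for Lt, 4725 to 24566 over the 6 Mt libraries and 682 to 1161 for Ht. Within Mt, replicate 2 of Mt2 and of Mt1 stood apart, with Alb at 11698 and 13312 CPM against 53761 to 81613 in the other 4 libraries. Alb was at 129515 and 108806 CPM in con and at 1373, 2498 and 1877 in Ht. In such bulk samples, fewer hepatocytes and less RNA per hepatocyte cannot be told apart.

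In normal liver the 10 genes covered a wide range. On the length-corrected scale of TPM (transcripts per 1000000, mean ± SD, n = 2), Hpx was at 7168 ± 3293, Hamp at 4327 ± 428, Hp at 3510 ± 1127, Orm1 at 1690 ± 146 and Crp at 337 ± 4.53. The other 5 genes were low, with Saa1 at 45.1 ± 26.2, Orm2 at 17.6 ± 1.51, Saa2 at 16.2 ± 12.6, Saa3 at 3.90 ± 1.61 and Lcn2 at 3.38 ± 3.03 TPM. In this order neighbors lay within their SDs among Hpx, Hamp and Hp and among the 5 low genes, and Orm1 and Crp stood apart from their neighbors. The low set holds the 4 genes that were called higher in Lt.

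Saa1 and Saa2 rose from normal liver to small metastases and were below normal liver in Ht. Saa1 was at 93.4 and 38.6 CPM for con, 876 for L-con, 758 and 941 for Lt, 489 and 836 for Mt3, 290 and 213 for Mt2, 105 and 189 for Mt1, and then 9.81, 6.44 and 4.66 for Ht. L-con and every Lt and Mt library were above both con libraries, and every Ht library was below them. Saa2 was at 37.4 and 10.7 CPM for con, 422 for L-con, 348 and 524 for Lt, 334 and 380 for Mt3, 124 and 106 for Mt2, 31.7 and 97.3 for Mt1, and then 2.93, 1.25 and 2.15 for Ht. Here too Ht was below con and the other groups above it, except that replicate 1 of Mt1 lay within the range of con. Across the 13 tissue samples the log2(CPM + 1) values of the pair had a Pearson r of 0.995, a description of samples that share groups and, for this pair, possibly reads.

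From con to Lt the log2 fold change was 3.69 for Saa1 (standard error 0.51, 12.9-fold, adjusted p = 0.00247) and 4.18 for Saa2 (standard error 0.71, 18.1-fold, adjusted p = 0.00549), from the quasi-likelihood test of edgeR, adjusted over 17187 genes after Benjamini and Hochberg, as for all adjusted p-values of tissue below. From con to Mt both stayed higher, by 2.14 and 2.52 on the log2 scale (adjusted p = 0.00439 and 0.0097). Without replicate 2 of con, Saa2 was no longer called there (1.89, adjusted p = 0.071). From con to Ht Saa1 fell by 3.27 and Saa2 by 3.64 on the log2 scale (adjusted p = 0.000541 and 0.0018).

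Saa3, the SAA gene of macrophages, adipocytes and other cells outside the liver parenchyma, was low in every group. It was at 7.79 and 4.22 CPM for con, 6.01 for L-con, 14.3 and 12.1 for Lt, 9.04 and 9.65 for Mt3, 5.16 and 5.01 for Mt2, 2.37 and 35 for Mt1, and then 3.20, 1.46 and 3.74 for Ht. The highest value belonged to replicate 2 of Mt1 and the replicates of that group lay 14.7-fold apart. Saa3 was not called between tissue groups on the TMM scale: the estimates were 1.14 for Lt against con (log2, standard error 0.92, adjusted p = 0.43), -1.26 for Ht against con (adjusted p = 0.261) and -1.94 for Ht against Mt (adjusted p = 0.109). The last was called by DESeq2 (-1.91, adjusted p = 0.0309) and without replicate 1 of Mt1 (-2.24, adjusted p = 0.0105), and without the filter on low counts all 3 were (adjusted p = 0.00527, 0.00224 and 2.96e-09).

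Of the neighboring orosomucoid genes, Orm2 was called higher in Lt and Mt and Orm1 was not; the difference between them was not tested. Orm1 was already abundant in con, at 729 and 815 CPM, and reached 1772 in L-con and 1864 and 1211 in Lt. It was at 1055 and 1399 CPM for Mt3, 891 and 382 for Mt2, 854 and 320 for Mt1, and then 49.7, 69.2 and 42.1 for Ht. Lt lay above con without overlap, but the log2 fold change of 0.99 had an adjusted p of 0.259 and was not called; the fall from con to Ht, by 3.75 on the log2 scale, was (adjusted p = 0.000651).

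Orm2 was scarce in con, at 8.59 and 7.53 CPM. It was at 117 CPM for L-con, 71.1 and 118 for Lt, 54.4 and 140 for Mt3, 63.8 and 69.8 for Mt2, 108 and 65.0 for Mt1, and then 8.12, 16.9 and 6.10 for Ht. All 6 Mt libraries were thus above both con libraries, and Ht overlapped con. Against con, Orm2 changed on the log2 scale by 3.55 in Lt (11.7-fold, standard error 0.57, adjusted p = 0.0041) and by 3.36 in Mt (10.2-fold, adjusted p = 0.00132), and its value for Ht was 0.57 (SE 0.53, adjusted p = 0.368). Without replicate 2 of con the change to Lt was 3.45 with an adjusted p of 0.0565. Under total-count scaling, the change to Ht was 1.75 and was called (adjusted p = 0.0166). The count ratio of Orm1 to Orm2 was 84.9 and 108 for con, 15.1 for L-con, 26.2 and 10.3 for Lt and 4.09 to 6.89 for Ht.

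The hemoglobin and heme scavengers Hp and Hpx were called in neither Lt nor Mt and fell in Ht. Hp was at 4100 and 2555 CPM for con, 4705 for L-con, 5774 and 3869 for Lt, 1862 to 4401 over the 6 Mt libraries (median 3498), and then 339, 560 and 334 for Ht. Hpx was at 8437 and 4255 CPM for con, 11256 for L-con, 10711 and 8092 for Lt, 3399 to 8526 over Mt (median 7235), and then 436, 823 and 401 for Ht. Lt and Mt overlapped con for both genes, and Ht lay below it. Their log2 fold changes from con to Lt were 0.54 and 0.57 (adjusted p = 0.518 and 0.571), and those from con to Ht were -2.89 and -3.35 (adjusted p = 0.00183 and 0.00256). The Pearson r of the pair over the 13 samples was 0.996.

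Lcn2 had the largest fold change of the 10 genes from con to Lt and was the single member above con in Ht by the test. It was at 8.59 and 1.90 CPM for con, 76.2 for L-con, 155 and 122 for Lt, 59.3 and 150 for Mt3, 68.6 and 88.1 for Mt2, 277 and 99.3 for Mt1, and then 38.9, 55.6 and 26.0 for Ht. Every tumor-bearing library, L-con included, was above both con libraries. The log2 fold change from con was 4.73 in Lt (standard error 0.80, 26.5-fold, adjusted p = 0.00543), 4.47 in Mt (22.1-fold, adjusted p = 0.00186) and 3.07 in Ht (8.42-fold, adjusted p = 0.00606). The summed CPM of 10 neutrophil genes moved as well, from 2.73 to 4.52 in con to 20.6 to 20.9 in Lt, 13.7 to 55.4 over Mt and 15.3 to 22.4 in Ht, with 4 and 5 of the 10 genes at 0 counts in con and 3 and 1 in Lt. In L-con, where Lcn2 was 14.5 times the con mean, the neutrophil sum was 5.36 CPM with 3 genes at 0. Genes of other cells were higher too: 11 macrophage genes summed to 516 to 763 CPM in con, 1319 in L-con, 1262 to 1609 in Lt and 1903 to 1936 in Ht. The sum of 7 stellate cell and fibroblast genes was 268 to 378 CPM in con, 639 in L-con, 1512 to 2941 in Lt and 5857 to 6653 in Ht. The part of these cells in the Lcn2 values was not tested.

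Hamp was lower than in normal liver wherever a comparison called it. It was at 1125 and 968 CPM for con, 346 for L-con, 542 and 415 for Lt, 266 and 797 for Mt3, 147 and 85.7 for Mt2, 165 and 20.3 for Mt1, and then 3.95, 10.2 and 5.73 for Ht. Every library of a tumor-bearing mouse was below both con libraries. The fall by 1.13 on the log2 scale from con to Lt was not called (standard error 0.84, adjusted p = 0.399) but was with only con and Lt in the fit (-1.17, adjusted p = 0.0267) or without the filter on low counts (-1.13, adjusted p = 0.00767), whereas the changes of -2.55 to Mt (5.85-fold lower, adjusted p = 0.0103) and of -7.13 to Ht (140-fold lower, adjusted p = 0.000541) were. The call in Mt was lost with Mt3, Mt2 and Mt1 as 1 group (-2.08, adjusted p = 0.0731) and without replicate 1 of con (-2.43). An annotated gene on the opposite strand, Gm44662, overlaps Hamp and was at 0 counts in all 14 tissue libraries.

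Crp was not called in Lt and fell in Mt and Ht. It was at 694 and 674 CPM for con, 710 for L-con, 679 and 472 for Lt, 466 and 525 for Mt3, 343 and 114 for Mt2, 201 and 100 for Mt1, and then 11.7, 14.4 and 12.2 for Ht. The log2 fold change was -0.25 from con to Lt (adjusted p = 0.755), -1.41 from con to Mt (adjusted p = 0.0147) and -5.70 from con to Ht (51.9-fold, adjusted p = 0.000132). The call in Mt was lost under total-count scaling (-0.84) and with Mt3, Mt2 and Mt1 as 1 group (-1.23, adjusted p = 0.0861). It was also lost without replicate 1 or replicate 2 of con (-1.39 and -1.43). Over the 13 samples Crp had a Pearson r of 0.980 with Alb, the highest of the 10 genes, against -0.10 for Lcn2.

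**Figure D1:**
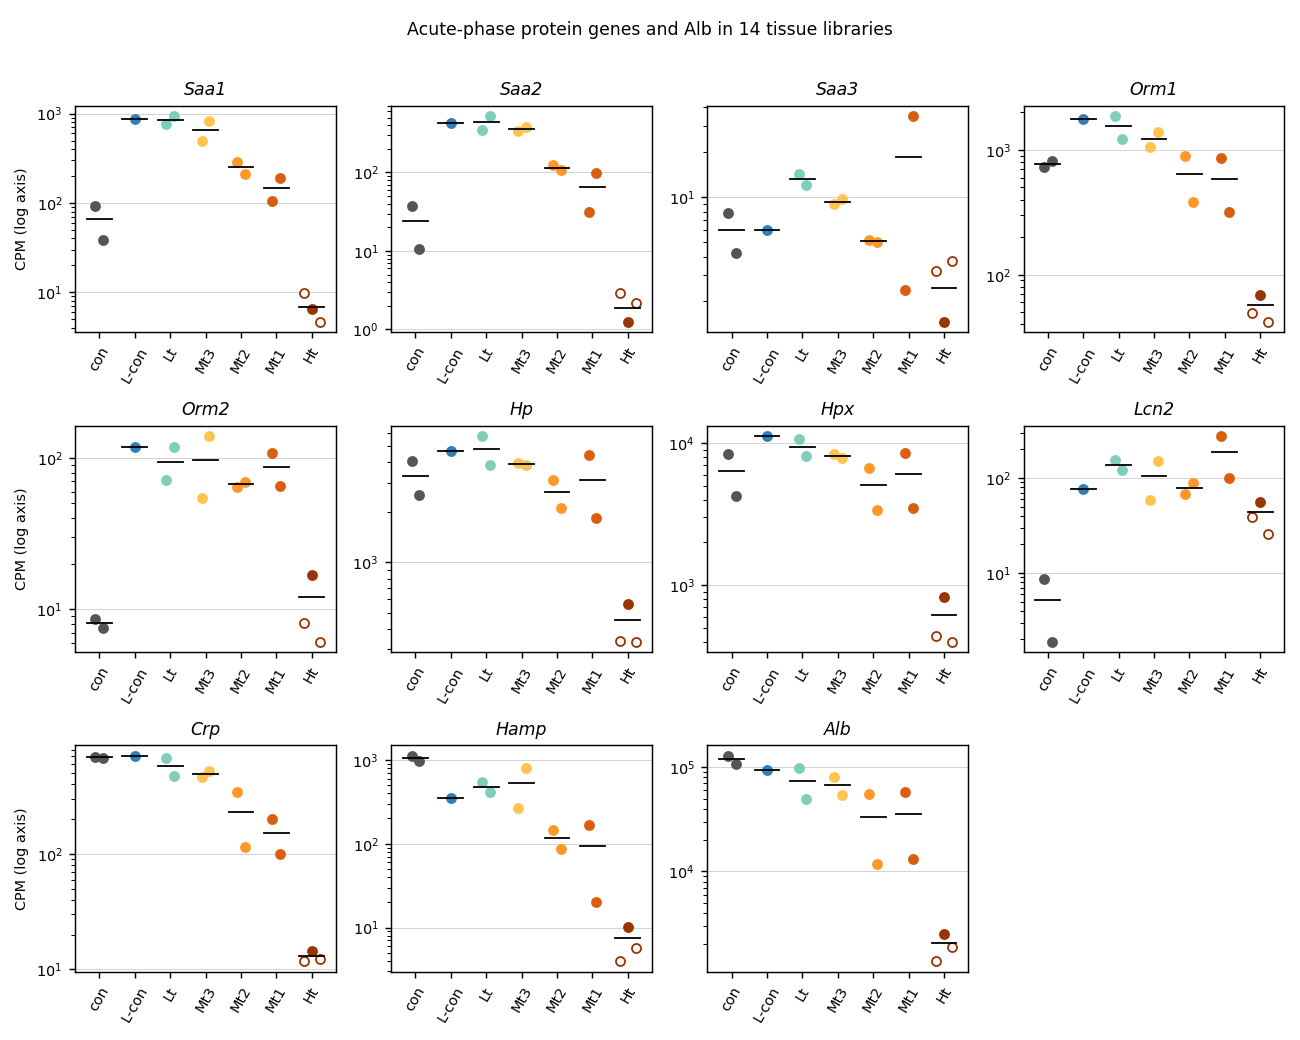
TMM-scaled CPM of the 10 genes and Alb in each tissue library, on a log axis, by group. Points are libraries, white points are Ht_1 and Ht_3, which were counted as 1 sample, and bars are group means. Saa1, Saa2, Orm2 and Lcn2 lie above con from L-con to Mt1, except for 1 Mt1 library of Saa2, and Hamp lies below con in every tumor-bearing group; of all genes, 63.9% did not overlap con in Lt, 53.8% in Mt and 85.7% in Ht.

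Counted together, 4 of the 10 genes were called higher from con to Lt (Saa1, Saa2, Orm2 and Lcn2) and none lower, against 12.4% of 17187 genes called higher and 0.256% called lower. A gene was called at an adjusted p of at most 0.05 with a log2 fold change of at least 1 in size. The median log2 fold change of the 10 was 1.07, beside 0.10 over all genes. From con to Mt the same 4 genes were called higher and Crp and Hamp lower, against 20.2% and 10.3% of all genes, with a median of 0.34 beside 0.08. From con to Ht 1 gene was called higher (Lcn2) and 7 lower, all but Saa3 and Orm2 of the remaining 9, against 25.8% and 24.1%, with a median of -3.31 beside 0.09. These comparisons share the con libraries. Total-count scaling moved the median of all genes to 0.40, 0.72 and 1.28, and each member called under TMM lay on the same side of those medians.

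From Lt to Mt no member was called, nor was any of the 17187 genes (0%), by edgeR. At an unadjusted p under 0.05, Saa1, Saa2, Orm1 and Crp were lower in Mt, by 1.55, 1.66, 1.00 and 1.16 on the log2 scale. Their adjusted p-values were 0.214 to 0.246, and the share of all genes under that unadjusted p was not counted. DESeq2 called 1 member lower, Saa1, as did edgeR, with Crp, without replicate 1 of Mt2. From Mt to Ht 8 members were called lower, all but Saa3 and Lcn2, against 13.4% of all genes called lower and 1.5% called higher; the falls ran from 2.79 (Orm2) to 6.16 (Saa2) on the log2 scale. With either Ht sample left out, no gene of the table was called from Mt to Ht, and the 8 members had adjusted p-values of 0.139 to 0.159 without the summed pair and 0.0845 to 0.0873 without Ht_2.

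Relative to Alb, Saa1, Saa2, Orm2 and Lcn2 were called higher than con in Lt, Mt and Ht. Of all genes, 4.48%, 37% and 91% were called higher in these groups, and in Ht 8 of the 10 members were. Per 1000 Alb counts, Saa1 was at 0.721 and 0.355 for con, 9.36 for L-con, 7.67 and 18.9 for Lt, 1.80 to 18.2 over Mt, and then 7.15, 2.58 and 2.48 for Ht. Orm2 was at 0.0663 and 0.0692 for con, 1.25 for L-con, 0.719 and 2.37 for Lt, 0.666 to 5.96 over Mt, and then 5.92, 6.77 and 3.25 for Ht. Lcn2 rose furthest, from 0.0663 and 0.0175 in con through 0.814 in L-con and 1.57 and 2.44 in Lt to 0.727 to 7.53 in Mt and 28.3, 22.3 and 13.9 in Ht. No library of a tumor-bearing mouse overlapped con for any of these 3 genes, and relative to Alb the same held of 60.6% of all genes in Lt, 66.4% in Mt and 96.8% in Ht, each taken alone.

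In the fit with the Alb count of each library as the reference, Saa1, Saa2, Orm2 and Lcn2 were called higher from con to Lt, and none lower, against 4.48% and 0.00582% of 17186 genes. Their log2 fold changes were 4.63, 5.18, 4.51 and 5.58 (standard error 1.14 to 1.24, adjusted p = 0.0149, 0.0117, 0.016 and 0.00532). These calls rest on few samples: without either con library none of the 4 was called, and 7 or 8 genes of the whole table were, and without replicate 2 of Lt only Lcn2 was, while their log2 fold changes stayed between 3.41 and 6.83. From con to Mt the 4 genes and Saa3 were called higher and none lower, against 37% and 0.0873% of all genes. Orm1, Hp and Hpx were not called there (1.68, 1.74 and 1.73, adjusted p = 0.0845, 0.0682 and 0.0624). They were called by limma on log ratios and with the 8 hepatocyte genes in place of Alb. Without replicate 2 of con, Saa1 and Saa2 were not called there either (adjusted p = 0.114 and 0.0985), and without replicate 1 Saa1 was not (adjusted p = 0.0558). The call of Saa3 (2.89, adjusted p = 0.043) was lost without either con library or replicate 2 of Mt3, and without replicate 2 of Mt1 its value was 1.22 (adjusted p = 0.232).

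From con to Ht 8 members were called higher relative to Alb, all but Crp and Hamp, but so were 91% of all genes, with 0.186% called lower, and the median log2 fold change of all genes was 5.99. The count was 3 without replicate 2 of con (Saa3, Orm2 and Lcn2), where 14908 of 17151 genes were called higher, and 5 without the summed Ht sample, where 14739 of 17069 were. The members' median of 2.60 lay below that of all genes and above the 0.41 of the 8 other hepatocyte genes, none of which was called relative to Alb in any of the 5 comparisons. Hp and Hpx, for example, rose by 2.97 and 2.49 relative to Alb (adjusted p = 0.00309 and 0.00811) while falling on the TMM scale. Hp was at 31.7 and 23.5 per 1000 Alb counts in con, 58.4 and 77.7 in Lt, 48.8 to 182 over Mt and 247, 224 and 178 in Ht. Without replicate 2 of con, neither of these was called (adjusted p = 0.0606 for Hp and 0.118 for Hpx).

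Crp and Hamp were called in no comparison relative to Alb. Per 1000 Alb counts Crp was at 5.36 and 6.20 for con, 7.59 for L-con, 6.87 and 9.47 for Lt, 3.45 to 9.77 over Mt, and then 8.55, 5.76 and 6.50 for Ht. Its log2 fold change relative to Alb was 0.50 in Lt, 0.27 in Mt and 0.18 in Ht (adjusted p = 0.803, 0.76 and 0.846). Hamp was at 8.69 and 8.89 per 1000 Alb counts for con, 3.70 for L-con, 5.49 and 8.34 for Lt, 1.53 to 14.8 over Mt, and then 2.88, 4.07 and 3.05 for Ht. The con libraries were above all others but 1, replicate 2 of Mt3, and the log2 fold changes of -0.35, -0.93 and -1.32 in Lt, Mt and Ht were not called (adjusted p = 0.861, 0.263 and 0.184).

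From Lt to Mt no member was called relative to Alb, and neither was any other gene (0%). From Mt to Ht, Saa3 (1.88, adjusted p = 0.0389) and Lcn2 (2.55, adjusted p = 0.00152) were called higher and Saa2 lower (-2.27, adjusted p = 0.0313), against 90.8% of all genes called higher and 0.151% lower. Saa3 overlapped between Mt and Ht. Its call was lost with Mt3, Mt2 and Mt1 as 1 group (1.23, adjusted p = 0.307). The same held with the 8 hepatocyte genes in place of Alb (1.87, adjusted p = 0.0535), without the summed Ht sample (0.67) and without replicate 1 of Mt3 (1.78). Saa2 overlapped too, and its call was lost without replicate 2 of Mt1 (-1.32, adjusted p = 0.116) and without Ht_2 (-1.68, adjusted p = 0.229). Without the 2 Mt libraries lowest in Alb, 5 members were called higher, Hp, Hpx, Orm2, Saa3 and Lcn2, and none lower, as were 15755 of 16841 genes.

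**Figure D2:**
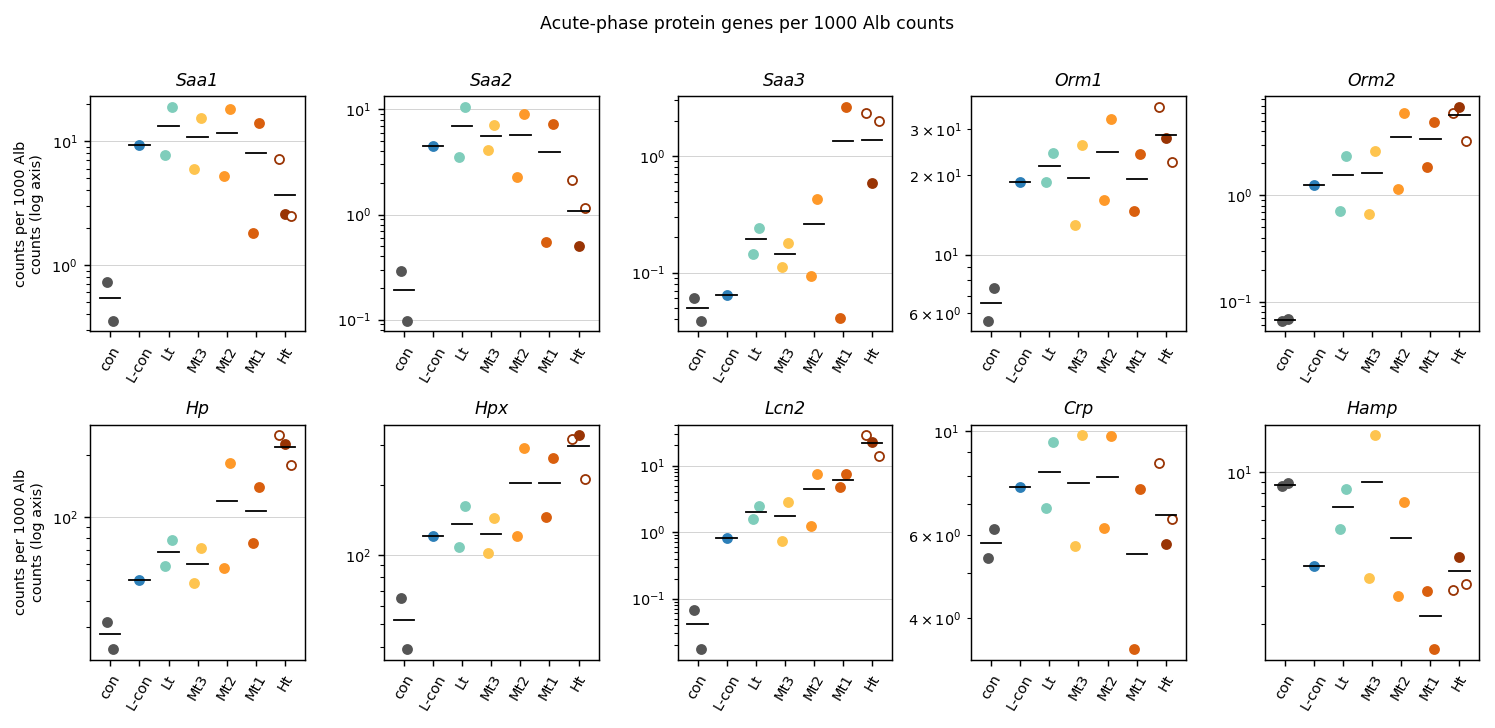
Counts of the 10 genes per 1000 Alb counts in each tissue library, on a log axis, by group, with points and bars as for CPM. Saa1, Saa2, Hp, Hpx, Orm1, Orm2 and Lcn2 are above con in every library of a tumor-bearing mouse (of all genes, 60.6%, 66.4% and 96.8% did not overlap con in Lt, Mt and Ht), whereas Crp stays between 3.45 and 9.77 throughout.

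**Figure D3:**
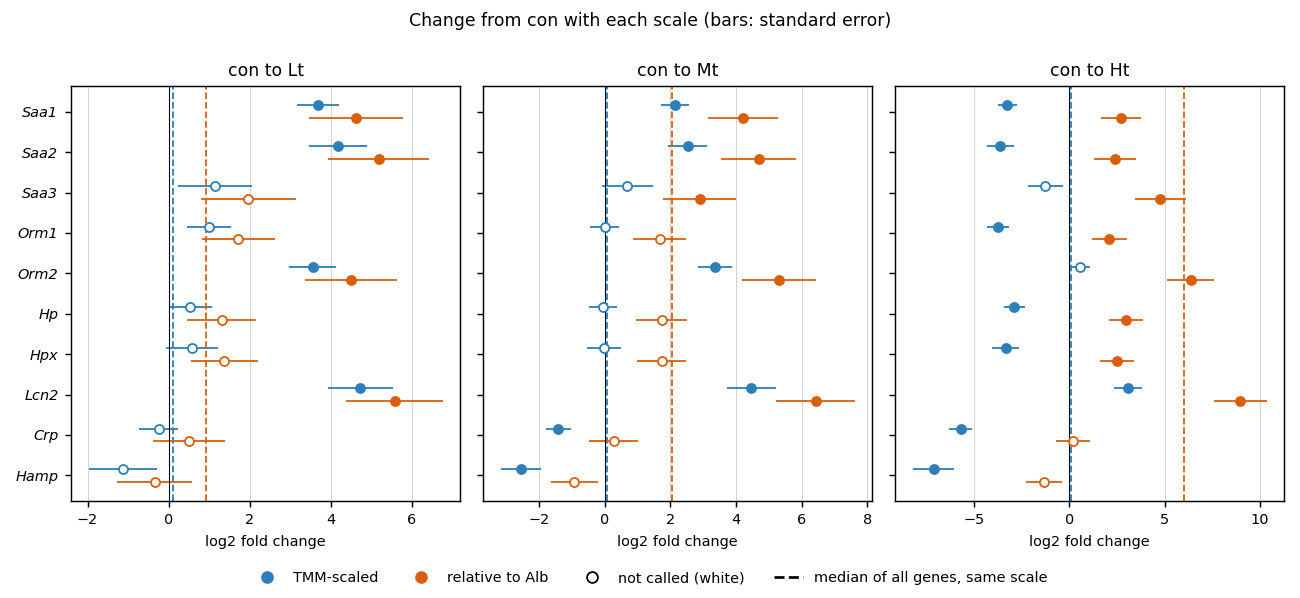
Log2 fold changes from con with their standard errors, on the TMM scale and relative to Alb; filled points were called and dashed lines are the medians of all genes. In Ht the relative values of most members lie left of the median of 5.99, and Crp lies at 0.18.

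The L-con group was 1 library of tumor-free liver, with no replicate and hence no test. On the CPM scale 8 of the 10 genes were above both con libraries, Saa3 was between them and Hamp was below, against 36% of 17187 genes above and 32.1% below. Saa2 was 17.5, Orm2 14.6, Lcn2 14.5 and Saa1 13.3 times the con mean. Orm1 was 2.30, Hpx 1.77, Hp 1.41 and Crp 1.04 times the con mean, and Hamp was 3.02-fold lower. Alb, at 93640 CPM, was 0.786 times the con mean, and the 8 hepatocyte genes summed to 33181 CPM, just under the con libraries. Relative to Alb, 9 genes were above both con libraries and Hamp was below, 2.38-fold under the con mean, against 66% and 8.75% of all genes. For Saa1, Saa2, Orm1 and Orm2 the L-con value lay between the 2 Lt libraries, and for Lcn2 and Hamp it lay below both.

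In the isolated cells the genes ranged from 5748 counts, for Lcn2, to 0, for Hamp, both in CD11b+ cells. Hp had 3501, 4134 and 5064 counts in CD11b+ cells and 1440, 1596 and 1253 in F4/80+ cells. Lcn2 had 3025, 1161 and 5748 counts in CD11b+ cells against 54, 180 and 1095 in F4/80+ cells, and Saa3 had 204, 83 and 926 against 47, 108 and 33. Hpx had 195, 221 and 347 counts against 679, 384 and 432. Lcn2 and Saa3 overlapped between the populations: CD11b+ replicate 2, at 54.9 CPM of Lcn2, was below F4/80+ replicate 3, at 58.5. Orm1 had 48, 21 and 118 counts against 32, 39 and 31, and Crp had 3, 7 and 15 against 39, 11 and 23. Saa1, Saa2, Orm2 and Hamp had at most 21 counts in any of the 6 libraries.

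No member was called from CD11b+ to F4/80+ cells among the 8 tested, against 0.0771% of 14263 genes called either way. Hp, Hpx, Saa3 and Lcn2 had an unadjusted p under 0.05, a threshold at which the share of all genes was not counted. Hp came closest, at -1.63 on the log2 scale (SE 0.25, adjusted p = 0.0624 in edgeR). It was at 186, 196 and 334 CPM in CD11b+ cells and 79.2, 84.6 and 67.0 in F4/80+ cells. Of the 8 tested members 1, Hp, did not overlap between the populations, against 23.3% of all 14263 genes. DESeq2 called Hp (adjusted p = 7.82e-07), as did edgeR without replicate 3 of CD11b+ cells (adjusted p = 0.00509). Saa3 and Lcn2 had log2 fold changes of -2.90 and -3.06 with adjusted p-values of 0.394 and 0.425.

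Genes of other cell types were counted in both populations. The 10 neutrophil genes summed to 1213 to 6051 CPM in CD11b+ cells and 180 to 819 in F4/80+ cells, and replicate 3, the highest of each population in Lcn2, was also the highest in this sum. The 8 hepatocyte genes summed to 9.28 to 28.2 CPM in CD11b+ cells and 28.5 to 50.7 in F4/80+ cells, and Alb was at 36.5 to 106 and 122 to 229 CPM. The part of such cells in the Hp, Lcn2 and Saa3 values was not tested. Per 1000 Alb counts, Hpx was at 212 to 287 in CD11b+ and 163 to 189 in F4/80+ cells, within the 102 to 291 of Mt tissue, whereas Hp was at 3145 to 5362 and 346 to 694, above the 48.8 to 182 of Mt tissue in all 6 libraries. Lcn2 likewise exceeded its Mt tissue values per Alb count in all 6 libraries, at 1506 to 3570 and 13 to 480. These tables were scaled separately and were not tested against each other.

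**Figure D4:**
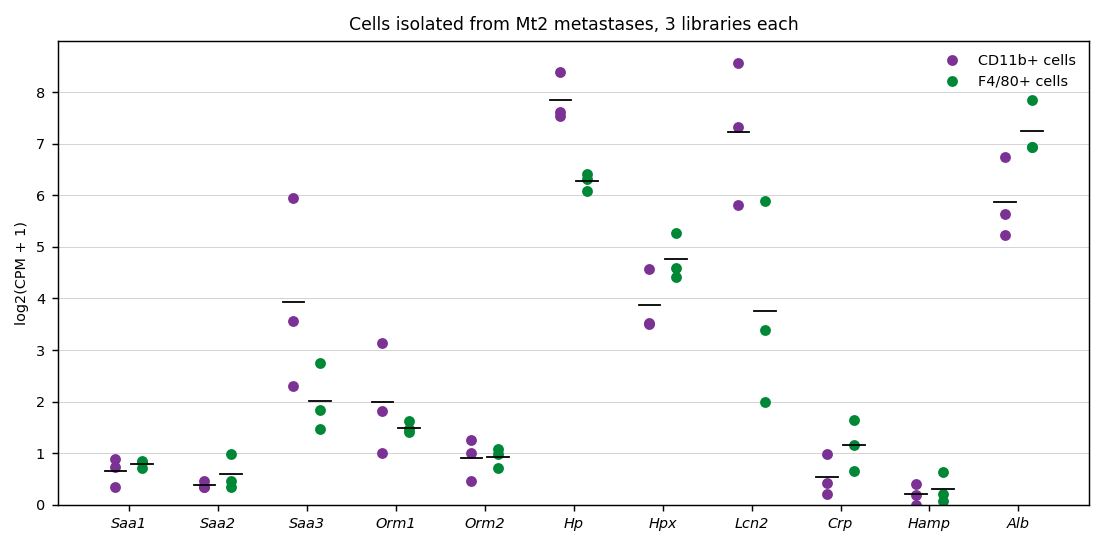
log2(CPM + 1) of the 10 genes and Alb in CD11b+ and F4/80+ cells, 3 libraries each; points are libraries and bars are means. Hp is higher in all 3 CD11b+ libraries than in any F4/80+ library (of all genes, 23.3% did not overlap between the populations), and Saa1, Saa2 and Hamp are below 1 CPM in all 6.

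Among the cytokines that drive the acute phase, 8 were listed and 7 tested. From con to Lt 2 were called higher, Lif and Tnf, from con to Mt 3 (Lif, Osm and Tnf) and from con to Ht 4 (these and Il11), with Il1a called lower in Ht (-2.65), against 12.4%, 20.2% and 25.8% of all genes called higher and 24.1% called lower in Ht. Relative to Alb, 1, 5 and 7 of the 7 were called higher in Lt, Mt and Ht and none lower, against 4.48%, 37% and 91% of all genes called higher. Lif, a gp130 cytokine, had 0 counts in both con libraries, 29 and 80 in Lt, 46 to 244 over Mt and 222 to 233 in Ht, and was thus at least 14.1-fold, 19.8-fold and 32.4-fold higher against a floor of 3 counts per con library. In L-con it had 1 count. Il6 itself had at most 10 counts in any tissue library and 0 in con, so that no fold is given, and Il22 had none. In the isolated cells Il1b was at 731 CPM on average in CD11b+ and 285 in F4/80+ cells, and Osm at 194 and 132.

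Among the receptors of these cytokines, Il6ra was called lower in Lt, Mt and Ht. Of 7 receptors none was called higher, and 1, 3 and 4 were called lower in Lt, Mt and Ht, against 0.256%, 10.3% and 24.1% of all genes. Il6ra, the ligand-binding chain for interleukin-6, was at 213 and 203 CPM for con, 99.1 for L-con and 86.2 and 80.3 for Lt (log2 fold change -1.32, adjusted p = 0.0461). Lifr and Il1rap fell furthest in Ht, by 3.71 and 3.38, and Lifr and Il6ra in Mt, by 1.55 and 1.52. Of 11 transducers, 1, 2 and 3 were called higher, against 12.4%, 20.2% and 25.8% of all genes, led by Socs3, a STAT3 target and feedback inhibitor, at 10.2 and 10.6 CPM for con, 28.8 for L-con and 39.6 and 37.0 for Lt (1.88, adjusted p = 0.000776). Nfkbiz followed in Mt (1.41) and Nfkb1 in Ht (1.33), and Stat3 alone was called lower, in Ht (-1.18). Relative to Alb no receptor was called lower, and 0, 3 and 7 of the 7 were called higher in Lt, Mt and Ht, with a median of 4.49 in Ht beside 5.99 for all genes. On that scale 4.48%, 37% and 91% of all genes were called higher, so that the counts of receptors in Mt and Ht were near the background. Of the 11 transducers 0, 6 and 11 were called higher relative to Alb, with a median of 6.22 in Ht, also beside those shares and 5.99. On the TMM scale the 8 hepatocyte genes had a median of -5.45 in Ht, and the part of hepatocyte content in these falls was not tested. The medians of the receptors were 0.29, -0.33 and -1.42 and those of the transducers 0.15, 0.32 and 0.30 in Lt, Mt and Ht, beside 0.10, 0.08 and 0.09 for all genes.

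The genes that control hepcidin were described beside Hamp. None of 14 was called in Lt, 3 were lower in Mt and 7 lower with 1 higher in Ht, with medians of -0.37, -0.51 and -0.91. Of all genes, 0.256%, 10.3% and 24.1% were called lower in Lt, Mt and Ht, and 25.8% higher in Ht. Relative to Alb none was called lower, and 0, 3 and 10 of the 14 were called higher, against 4.48%, 37% and 91% of all genes. Bmp6, the BMP ligand that reports liver iron and is made by sinusoidal endothelium, was at 16.8 and 16.7 CPM for con, 8.40 for L-con, 7.67 and 6.21 for Lt, 2.46 to 7.03 over Mt and 1.00 to 1.36 for Ht. It lay below con in every library, like Hamp, with a log2 fold change of -1.27 in Lt (adjusted p = 0.0505, not called), -1.91 in Mt (adjusted p = 0.000924) and -3.78 in Ht. The summed CPM of 7 endothelial genes was lower as well, from 330 to 463 in con to 290 to 311 in Lt, 173 to 322 over Mt and 143 to 150 in Ht, but at 364 in L-con it was within con, and its part was not tested. Tmprss6, which restrains hepcidin, was second in Mt (-1.55) and led in Ht (-5.30), before Tfr2 (-4.99), and Smad5 was the gene called higher in Ht (1.63).

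The receptors and partners of acute-phase proteins were listed as 9 genes. In Lt 3 were called higher, led by Tlr2 (1.73) and Fpr2 (1.56), which can both bind serum amyloid A. In Mt 4 were higher, led by Tlr2 (2.37) and Tlr4 (1.93). In Ht Tlr2 (2.82), Tlr4 (2.67) and Fpr2 were higher and 3 were lower, led by Slc40a1 (-2.61), the iron exporter that hepcidin blocks, and Scarb1 (-1.86). Over all genes 12.4%, 20.2% and 25.8% were called higher in Lt, Mt and Ht and 24.1% lower in Ht, so that the counts of 3 of 9 each way in Ht were near the background. Relative to Alb, 0, 4 and 9 of the 9 were called higher in Lt, Mt and Ht and none lower, near the 4.48%, 37% and 91% of all genes called higher on that scale, with a median of 5.17 in Ht beside 5.99. The part of the higher macrophage sums given above in the rise of Tlr2, Tlr4 and Fpr2 was not tested.

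**Figure D5:**
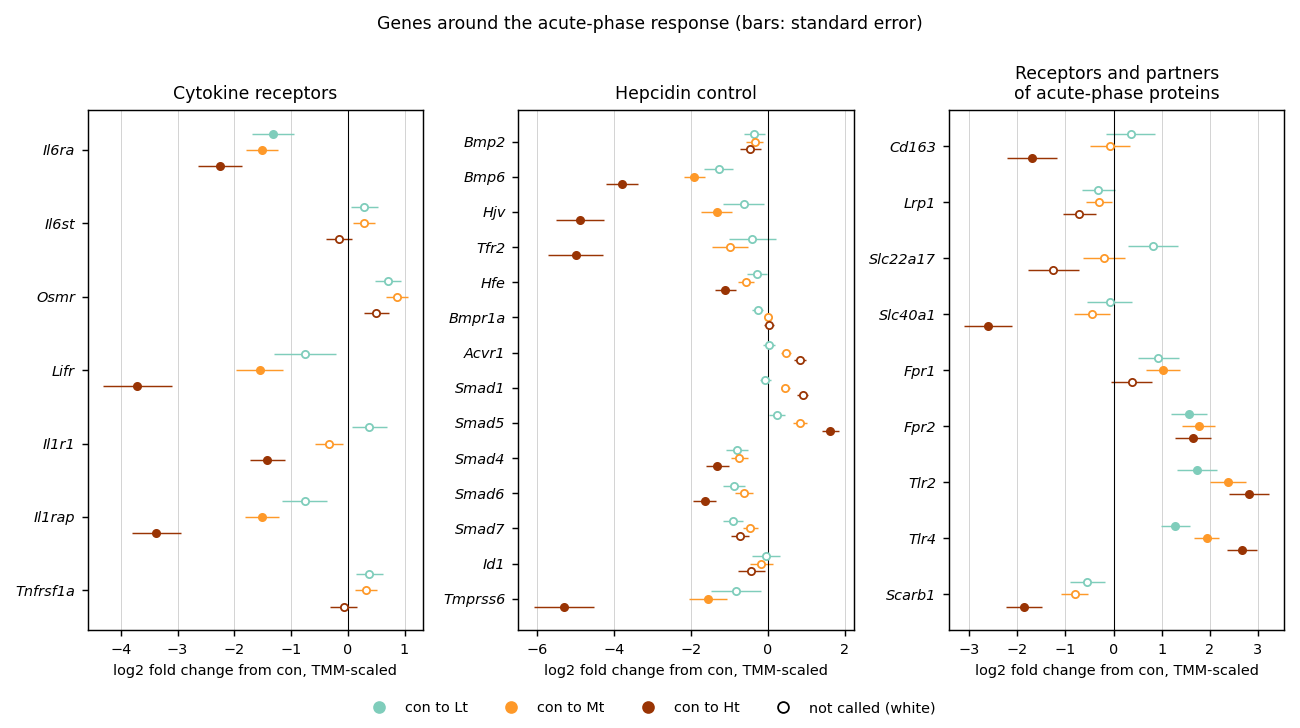
Log2 fold changes from con to Lt, Mt and Ht on the TMM scale, with standard errors, for cytokine receptors, genes of hepcidin control and partners of acute-phase proteins; filled points were called. Il6ra and Bmp6 lie below 0 in all 3 comparisons and Tlr2 above 0.

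Of 22 other positive acute-phase genes, 2 were called higher in Lt, the orosomucoid Orm3 (2.95) and Cd14 (1.47), and none lower. In Mt 3 were higher, led by Orm3 (2.25) and Cd14 (2.17), and Saa4, the constitutive SAA gene, was lower (-1.30). In Ht Cd14 was higher (2.21) and 18 were lower, among them Saa4 (-6.15) and Hamp2, which had 28 and 8 counts in con, 166 and 86 in Lt and none in Ht. Against 12.4% and 20.2% of all genes called higher, the 2 of 22 in Lt and 3 of 22 in Mt were near the background, while 24.1% of all genes were called lower in Ht. Their medians were 0.47, -0.19 and -3.12. Relative to Alb, 0, 7 and 14 of the 22 were called higher in Lt, Mt and Ht and none lower, against 4.48%, 37% and 91% of all genes called higher, with a median of 2.76 in Ht beside 5.99. Of 7 negative acute-phase genes none was called in Lt, 2 were lower in Mt, Serpina6 (-2.01) and Rbp4 (-1.47), and all 7 in Ht, led by Serpina6 (-7.53) and Ttr (-5.84), against 0.256%, 10.3% and 24.1% of all genes called lower. Relative to Alb none of the 7 was lower and 2 were higher in Ht, below the 91% of all genes called higher there. In L-con 20 of the 22 positive genes were above both con libraries, as were 8 of the 10 members and 36% of all genes.

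The genes whose pattern was most like that of each member were sought over the 13 tissue samples among 13753 others, by Pearson r of log2(CPM + 1), a description of samples that share groups. Saa1 and Saa2 were followed most closely by B3galt1, Fgl1 and Mustn1 (r = 0.903 to 0.934). Orm1, Hp and Hpx shared Serpina10 among their nearest 3 (r = 0.983 to 0.993), and Hp and Hpx shared Itih3. Orm2 was nearest to Icam1 (r = 0.931), Lcn2 to Tgm2 (r = 0.936), Crp to Apoa2 (r = 0.998) and Hamp to Nrd1 (r = 0.987). Saa3 had the loosest neighbors, Pamr1, Il1b and Sspn (r = 0.795 to 0.823). Among the members themselves, r with Lcn2 ran from -0.18 (Hamp) to 0.839 (Orm2), and Saa3 had its highest r with Saa2 (0.65).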

How the data were processed

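The 14 tissue and 6 isolated-cell libraries were deposited by the authors as 2 tables of raw read counts per gene for 54532 genes. The submitters' processing notes name CASAVA, HISAT2 2.0.5, featureCounts 1.5.0-p3 and GRCm38 (mm10). Every column was mapped to a sample by its name, and 0 were left unmapped. The Methods give female mice and the labels male.

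Ht_1 and Ht_3 were summed, since the Methods call them identical, although their counts differed beyond sampling noise (chi-square per degree of freedom 27.6). It was 26.7 for Ht_1 and Ht_2 and 12.1 for Ht_2 and Ht_3. By this measure Ht_3 was nearer to Ht_2 than to Ht_1, so the counts do not bear out the pairing that all Ht tests rest on. The 13 tissue samples were fitted in 7 groups with edgeR 4.0.16 (R 4.3.3): filterByExpr, TMM and quasi-likelihood F tests, adjusted over 17187 genes by the Benjamini-Hochberg method. Mt is the mean of the Mt3, Mt2 and Mt1 coefficients. For the fit relative to Alb, the Alb count replaced the library size (17186 genes). Isolated cells were fitted alone (14263 genes). Calls required an adjusted p no higher than 0.05 and a log2 fold change of at least 1 in size. The fits were also run on simulated data. Relative to Alb, the changes planted there were larger, and in genes with more counts, than several reported here, which that run does not cover.

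The Methods give 2 livers per group apart from L-con and speak of biological replicates, but the labels do not tie libraries to livers, and p-values measure the spread between these samples. The members and gene lists were chosen with earlier results of these data known. In each list and comparison, the genes named were the 2 called genes of largest change in each direction, and others are named where a result turns on them, chosen after their values were seen. Alternatives were DESeq2 1.42.0, limma 3.58.1 on log ratios, total-count scaling, other filters and groupings, and leaving out each replicate.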

Additional observations from a re-analysis of the deposited data

Results flagged for a closer look

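The L-con library, which enters no test because it has no replicate, held 8 members above both con libraries. Relative to the con mean, its CPM was 13.3 times as high for Saa1, 17.5 for Saa2, 14.6 for Orm2, 14.5 for Lcn2, 2.30 for Orm1, 1.77 for Hpx, 1.41 for Hp and 1.04 for Crp. Of all 17187 genes, 36% were above both con libraries.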

How the results depend on the processing

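Of 175 counts of called members under alternatives, 154 stayed within 1.5 times the reported count and 21 did not; of 1615 single log2 fold changes, 1502 kept their side of the threshold, 64 lost a call, 49 gained one and none that was called reversed. Of the 1502, 59 changed sign with neither value called. DESeq2 called 1 member from Lt to Mt and 1 between the isolated cells, and edgeR without the filter on low counts called 4 and 1, against 0 in both. DESeq2 called 220 of 17187 and 300 of 14263 genes there, and edgeR without the filter 887 of 29359 and 242 of 25772. With the 8 hepatocyte genes in place of Alb, 8 members were called from con to Mt, against 5, and 10030 of 17186 genes, against 6378. Without the 2 Mt libraries lowest in Alb (an alternative chosen after seeing the data) 5 were called from Mt to Ht relative to Alb, against 3, and 15792 of 16841 genes, against 15626 of 17186. The cause was not tested.

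With each replicate left out in turn, the counts ranged from 3 to 4 (con to Lt), 4 to 6 (con to Mt), 8 to 8 (con to Ht), 0 to 2 (Lt to Mt), 0 to 9 (Mt to Ht) and 0 to 1 (isolated cells). Relative to Alb they ranged from 0 to 4, 2 to 8, 3 to 7, 0 to 0 and 2 to 5 in the same order of tissue comparisons. A lone sample left in a group was assumed to vary like the other groups.

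No label says that replicate numbers pair the samples. Deviations of same-numbered samples correlated at 0.235 to 0.715 over the 6 pairs of groups among Lt, Mt3, Mt2 and Mt1, but at -0.15 to -0.059 between con and these groups, -0.36 to -0.098 between Ht and the other groups and -0.14 to 0.012 between the isolated cells, so the numbers were not used as pairs. With a replicate block the counts were 4, 6, 8, 0 and 8 and, relative to Alb, 4, 7, 8, 0 and 5, and 0 in isolated cells. The calls gained relative to Alb were Hp and Hpx from con to Mt (adjusted p = 0.0432 and 0.0381 in edgeR). From Mt to Ht they were Orm2 and Hp (adjusted p = 0.0413 and 0.0261). With the con numbers exchanged, an alternative chosen after seeing the data, the block gave 4 members from con to Lt on both scales.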
